A study of Rattus norvegicus with 4 samples.

Results

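Vimentin, fibronectin and 4 other genes linked to mesenchymal cells (Vim, Fn1, Col5a1, Col5a2, Emp3 and Lcp1) were followed in ROE2, an immortalized oral epithelial line. It was made from fetal tongue (18 days of age) of a transgenic Wistar rat, whose transgene encodes a temperature-sensitive SV40 large T antigen. They are 6 of the 14218 genes named on the array. They were selected on their log2 values over these same days, which earlier results had shown to be lower on later days. All 8 probe sets annotated to them were used, of 31099 in the table. A probe set is a group of short probes made to read a transcript, although 436 in the table carry several gene symbols. Since the values of every day served to choose the genes, their differences are given as a description.

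All cells carried the T antigen transgene and grew on collagen type I-coated dishes in medium with 2% serum and 10 ng/ml EGF. They were held at 33 °C for 24 h and then at 37 °C for 0, 3, 6 or 9 days. Day 0 is the labelled control. SV40 large T antigen drives cell division, and the temperature-sensitive form loses its function when cells are warmed. There was 1 array per day, so no difference has a replicate check or a p-value, and an effect of the day and an effect of its array cannot be told apart. No array comes from cells kept at 33 °C for 3, 6 or 9 days. Time at 37 °C, time in culture and loss of T antigen function therefore cannot be told apart. The line also has no counterpart without the transgene among these 4 arrays. The number of arrays limits the precision.

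A mesenchymal cell, such as a fibroblast, is held together by vimentin filaments and surrounds itself with fibronectin and fibrillar collagens, whereas a resting epithelial cell relies on keratin filaments and on junctions with its neighbours. Cultured and wounded epithelial cells often make vimentin and fibronectin too, and epithelial cells that undergo epithelial-mesenchymal transition (EMT) do so while losing E-cadherin. Type V collagen starts and trims the fibrils that type I collagen builds. EMP3 is a small membrane protein that crosses the membrane several times, and L-plastin, the product of Lcp1, bundles actin filaments, mainly in leukocytes and also in many tumour-derived epithelial cells.

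The promoter letters of Vim and Col5a2 are shown because these genes were lower on later days. A further reason is that the RefSeq table (build GRCr8) places their start at the edge of the annotated gene. Each line holds the 250 bases before the start, 5′ to 3′ on the strand of the gene. The Vim window is chr17:81577011-81577260 on the plus strand and the Col5a2 window chr9:55090152-55090401 on the minus strand. Capitals mark matches, on either strand, to the TATA box TATAAA, the CAAT box CCAAT, the GC box GGGCGG, the cyclic AMP response element TGACGTCA, the AP-1 element TGANTCA and the E-box CACCTG that SNAIL and ZEB factors read.
Vim: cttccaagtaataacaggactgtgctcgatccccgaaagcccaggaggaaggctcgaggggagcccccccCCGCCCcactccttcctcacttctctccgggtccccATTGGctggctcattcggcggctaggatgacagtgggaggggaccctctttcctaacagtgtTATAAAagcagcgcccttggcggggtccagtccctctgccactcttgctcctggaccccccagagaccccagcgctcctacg
Col5a2: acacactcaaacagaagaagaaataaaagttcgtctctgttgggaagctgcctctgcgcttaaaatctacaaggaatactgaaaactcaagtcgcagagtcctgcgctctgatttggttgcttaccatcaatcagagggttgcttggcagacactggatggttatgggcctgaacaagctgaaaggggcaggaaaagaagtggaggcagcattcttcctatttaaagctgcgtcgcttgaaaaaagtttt

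The Vim window held a reversed GC box, a reversed CAAT box and a TATA box, whose matches begin 180, 144 and 82 bases before the start and do not overlap. The Col5a2 window held none of the 6 motifs. The windows of Emp3 and Col5a1 do not end at the edge of the annotated gene and are not printed. That of Emp3 held a TATA box, a GC box and a CAAT box, and that of Col5a1 held a GC box. In 33469 rat promoter windows of the same length, 12.9% held the TATA box, 34.0% the CAAT box, 30.5% the GC box, 1.59% the cyclic AMP response element, 6.34% the AP-1 element and 15.9% the E-box. These matches describe letters and not sites in use. Fn1 and Lcp1 have no window among these promoters.

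Values are log2 values made by the authors with RMA. A difference of at least 2-fold between 2 arrays, which is 1 on the log2 scale, was called higher or lower. That rule was applied to the 8802 genes whose brightest probe set reached a log2 value of 6 on at least 1 array, and all 6 genes passed this floor. Lcp1 and Col5a2 passed it through day 0 alone, with 6.56 and 6.45, so lower later values were part of how they passed. Signal over background was judged by 27 bacterial control probe sets, the hybridisation spike-ins not included, whose brightest read 4.19, 4.36, 4.51 and 4.56 on days 0, 3, 6 and 9. The spike-ins, added in a fixed amount, were 0.14, 0.39 and 0.63 higher than on day 0 on days 3, 6 and 9, and the median gene was at -0.05, -0.18 and -0.14. Centring the arrays on the spike-ins, by the median deviation of 18 probe sets from their own means, would shift each gene's difference from day 0 by -0.15, -0.41 and -0.62 on days 3, 6 and 9, and centring on 10 reference genes by 0.20, 0.27 and 0.29. It can also change which genes reach the floor. Fewer cells that express a gene and less of its RNA per cell cannot be told apart in these bulk samples.

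By that rule 5 of the 6 genes were lower on day 3 than on day 0, and all 6 were lower on day 6 and on day 9. Of all genes above the floor, 2.15% were lower on day 3, 8.08% on day 6 and 6.25% on day 9. None of the 6 was higher on any of these days. Vim, Fn1, Col5a1, Emp3 and Lcp1 were lower on each of the 3 later days, as were 1.5% of all genes. Since these differences served to choose the genes, nothing is read from their counts.

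**Figure D1:**
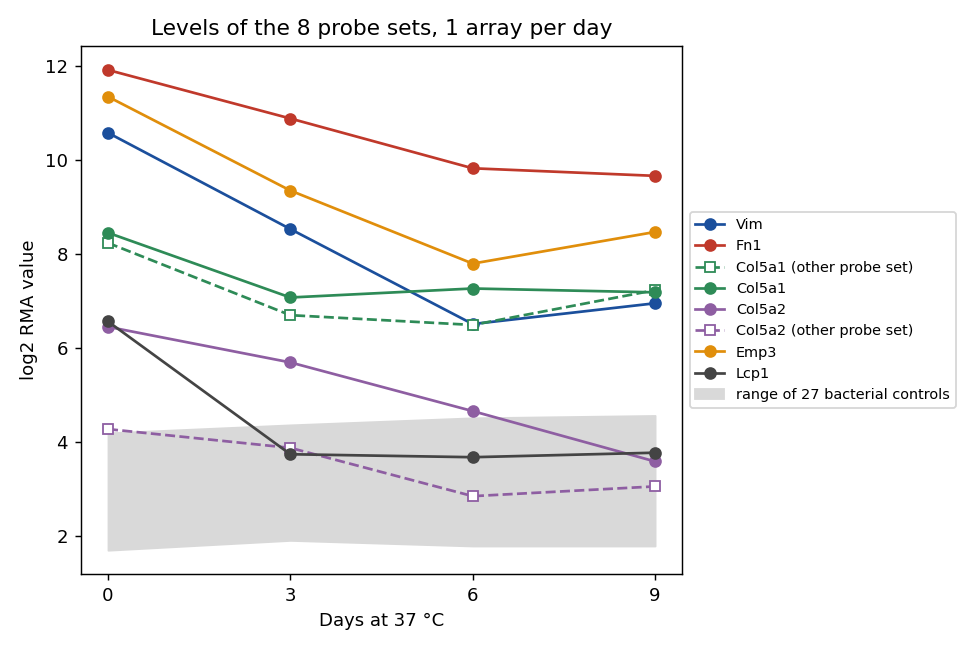
Log2 RMA values (vertical axis) of the 8 probe sets by days at 37 °C (horizontal axis), 1 array per day, with no error bars because there are no replicates. Filled points and solid lines are the brightest probe set of each gene, open squares and dashed lines the other one, and the grey band spans the 27 bacterial controls. Every line is lower on day 9 than on day 0, and Lcp1 lies inside the band from day 3.

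Vim, which encodes the intermediate filament protein of mesenchymal cells, had log2 values of 10.58, 8.53, 6.51 and 6.95 on days 0, 3, 6 and 9 (probe set 1367574_at). It was lower at each step up to day 6 and slightly higher again on day 9, and it stood above the bacterial controls on all 4 arrays. On a linear scale its signal was 24.1% of the day 0 signal on day 3, 5.94% on day 6 and 8.07% on day 9. The day 6 difference of -4.07 was 16.8-fold and the day 9 difference of -3.63 was 12.4-fold. Counting from the most lowered gene, Vim ranked 20 on day 3, 6 on day 6 and 6 on day 9 among 8802 genes. The day 6 value differed from that of day 3 by -2.02, about as much as day 3 from day 0 (-2.05).

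Of 12 other intermediate filament genes, 8 did not reach the floor, among them desmin (Des), glial filament protein (Gfap), peripherin (Prph) and nestin (Nes). The other 4 had a median difference of -0.56, -1.07 and -0.65 on days 3, 6 and 9. With no floor, over all 12, it was -0.01, -0.03 and -0.08. The nuclear lamin gene Lmnb2 was at -0.88, -1.49 and -1.13, and Lmnb1 at -0.33, -0.76 and -0.89. Other Lmnb1 probe sets were at -1.48 and -0.12 on day 9. Lmna, which encodes the A-type lamins, was at -0.16, -0.04 and -0.29, with its other probe set at 0.29 on day 9. The neurofilament gene Nefh was at -0.80, -1.38 and -0.41, with its lowest value on the same day as Vim. None of the 4 was as far from day 0 as Vim on any later day.

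Fn1, which encodes the adhesive matrix protein fibronectin, had log2 values of 11.92, 10.88, 9.82 and 9.66 on days 0, 3, 6 and 9 (1370234_at). Its signal was lower at each step, and the last step was small. It was 48.8%, 23.4% and 20.9% of the day 0 signal on days 3, 6 and 9. The differences were -1.03, -2.09 and -2.26, or 2.05-fold, 4.27-fold and 4.78-fold. The first of these lies just past the 2-fold rule, and it was -0.98 with the arrays centred on the median gene and -0.84 on the reference genes. On day 9 Fn1 ranked 30 among the most lowered genes.

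The genes of fibronectin receptors and matrix partners moved by different amounts. Of 20 measured, 10 reached the floor, and 1, 3 and 3 of these were lower on days 3, 6 and 9 (beside 2.15%, 8.08% and 6.25% of all genes) while 0 were higher. With centring on the spike-ins the day 9 count was 6 of 11, with a median of -1.01. Their median with no centring was 0.06, -0.07 and -0.52, against -0.05, -0.18 and -0.14 over all genes. Itgb6, which encodes the beta subunit of an epithelial integrin that binds fibronectin and latent TGF-beta, had log2 values of 9.66, 7.54, 7.30 and 7.74 on days 0, 3, 6 and 9. It was lower by 2-fold or more on all 3 later days, at -2.12, -2.36 and -1.92. Ltbp1, which encodes a protein that ties latent TGF-beta to fibronectin-containing matrix, was at -0.25, -1.70 and -2.26, so it came down later than Itgb6. The cell surface proteoglycan gene Sdc2 was at -1.01 on day 9 and its other probe sets at -0.94 and -0.64.

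Itga5, the alpha chain of the main fibronectin receptor, did not reach the floor and was at 5.83, 5.64, 5.78 and 5.46 on days 0, 3, 6 and 9. Its beta chain gene Itgb1 was at 0.05, -0.52 and -0.67 against day 0, and another Itgb1 probe set was at -1.41 on day 9. The alpha V chain gene Itgav differed by 0.36, 0.20 and -0.24. Sdc4, a proteoglycan that binds fibronectin in focal adhesions, was at 0.25, 0.50 and 0.22. The matrix protein gene Tnc was at 0.11, -0.16 and -0.65.

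Col5a1, which encodes the alpha-1 chain of type V collagen, has 2 probe sets. The brighter (1376099_at) had log2 values of 8.45, 7.07, 7.26 and 7.18 on days 0, 3, 6 and 9, and the other (1369955_at) 8.24, 6.70, 6.49 and 7.23. Both were above the bacterial controls on all arrays and both were highest on day 0. The brighter was lower by -1.38, -1.19 and -1.27, so it was farthest from day 0 on day 3, and with centring on the reference genes the day 6 and day 9 differences were -0.92 and -0.98, under 2-fold. The other was lower by -1.54, -1.75 and -1.01, and it was 0.74 higher on day 9 than on day 6, whereas the brighter differed by -0.08 over that step. For genes with several probe sets above the floor the median gap between them was 0.44 for day 9 minus day 0.

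Col5a2, which encodes the alpha-2 chain that joins the Col5a1 product in the common form of type V collagen, was dimmer relative to the controls. Its brighter probe set (1370895_at) had log2 values of 6.45, 5.69, 4.65 and 3.58 on days 0, 3, 6 and 9. It was lower at each step, and on day 9 it was no longer above the brightest bacterial control. The differences were -0.76 on day 3 and -1.79 on day 6, a 3.47-fold difference, and on day 9 it was at least 3.71-fold lower, set against that control. Its day 9 minus day 6 difference of -1.07 is at least 1.07-fold by the same bound. The other probe set (1373463_at) read 4.27 on day 0, just above the brightest control, and 3.87, 2.84 and 3.05 afterwards, within the range of the controls, so it gives no fold.

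The other fibrillar collagen genes were dim. All 9 were on the array and 0 reached the floor, and 7 were at or below the brightest bacterial control on all 4 arrays. Col1a1 was at 3.77 on day 9 and 3.94 on day 0, Col1a2 at 3.06 and 3.22, Col3a1 at 3.00 and 2.76, and Col5a3 at 2.96 and 2.87. Col1a1 and Col1a2 encode type I collagen, with which type V collagen normally assembles. The dishes were coated with type I collagen protein, which arrays do not measure.

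Genes for collagen-modifying enzymes and chaperones were measured beside the type V chains. Of 17, 7 reached the floor, with 1, 1 and 0 lower on days 3, 6 and 9 (beside 2.15%, 8.08% and 6.25% of all genes) and 0 higher, and a median of -0.09, -0.45 and -0.43. With centring on the spike-ins 4 of 8 were lower on day 9, with a median of -0.99. The gene that was lower was Bmp1, which encodes a protease that cuts procollagens, at -1.79 and -1.33 on days 3 and 6 and -0.73 on day 9. Its other probe set was at 0.22 on day 9. The prolyl hydroxylase gene P4ha2 was at -0.59 on day 3 and -0.94 on day 9, and Serpinh1, which encodes the collagen chaperone HSP47, at 0.18, -0.02 and -0.31.

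**Figure D2:**
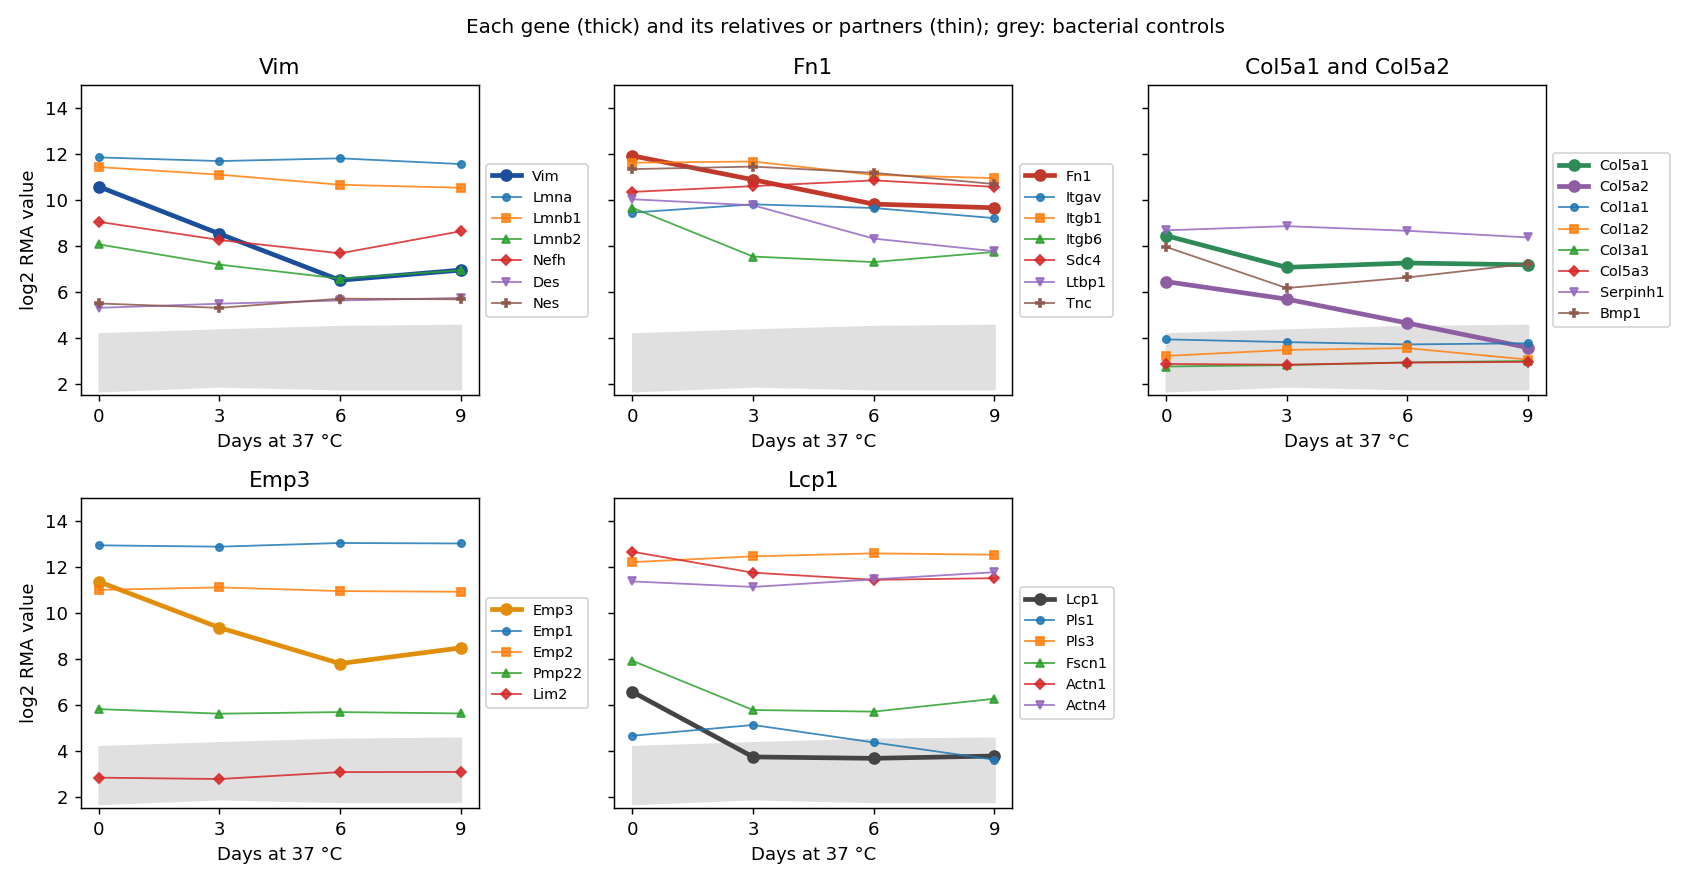
Log2 RMA values (vertical axes) by days at 37 °C (horizontal axes), 1 array per day, for each gene (thick line) and for relatives or partners (thin lines). The grey band spans the 27 bacterial controls. Emp1 and Emp2 stay level while Emp3 is at -2.88 on day 9 against day 0, and Col1a1, Col1a2, Col3a1 and Col5a3 lie inside the band throughout.

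Emp3, which encodes a membrane protein of the EMP and PMP22 family, had log2 values of 11.35, 9.35, 7.79 and 8.47 on days 0, 3, 6 and 9 (1367914_at). Like Vim it was lowest on day 6, and it was 0.67 higher on day 9 than on day 6. Its signal was 25.0%, 8.51% and 13.6% of the day 0 signal on days 3, 6 and 9, and it was 11.8-fold lower on day 6 and 7.37-fold on day 9. It ranked 22, 7 and 12 among the most lowered genes on those days.

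The relatives of Emp3 were within 2-fold of day 0. Emp1 was at 13.01 on day 9 and 12.93 on day 0, and Emp2 at 10.91 and 10.99. Neither differed by more than 0.11 from day 0 on any later day, although a second Emp2 probe set was 0.72 higher on day 9. Pmp22, the gene of the peripheral myelin protein that names the family, was below the floor at 5.81, 5.61, 5.68 and 5.62 on days 0, 3, 6 and 9, and the lens gene Lim2 was within the range of the controls.

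Lcp1, the gene of L-plastin, had log2 values of 6.56, 3.73, 3.67 and 3.77 on days 0, 3, 6 and 9 (1389210_at). It stood above the bacterial controls on day 0 and within their range on each later array, so its size is a bound. It was at least 4.61-fold lower on day 3, at least 4.14-fold on day 6 and at least 4.02-fold on day 9. The measured differences were -2.83, -2.89 and -2.79. The bound is smaller on later days because the brightest control reads higher there.

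Of 8 genes for other plastins and actin bundlers, 4 reached the floor, and 1, 2 and 2 of these were lower on days 3, 6 and 9 (beside 2.15%, 8.08% and 6.25% of all genes), with 0 higher. The day 9 count was 0 with the mean over probe sets, 1 with a floor of 8 and 1 with centring on the reference genes. It was 3 of 8 with no floor and 3 of 7 with a floor of 5. Their median was -0.57, -0.56 and -0.42, but 0.16, 0.03 and 0.29 over all 8 with no floor, and on day 9 it was 0.32 with a floor of 8 and -1.04 with centring on the spike-ins. Pls3, which encodes the plastin of most solid tissues, was 0.25, 0.38 and 0.32 higher. Pls1, the plastin of intestinal and inner ear epithelium, was below the floor, at 4.65, 5.12, 4.36 and 3.61 on days 0, 3, 6 and 9. Fscn1, which encodes the filopodial bundler fascin, was at -2.14, -2.21 and -1.65, although its other probe sets were at 0.24 and 0.60 on day 9. The alpha-actinin gene Actn1 was at -0.91, -1.22 and -1.15, with its other probe set at -0.52 on day 9, while Actn4 was at -0.24, 0.09 and 0.40.

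The courses of the 6 genes differed. Vim and Emp3 were lower on day 3, lower again on day 6 and then 0.44 and 0.67 higher on day 9, where 95% of all genes moved by 0.60 or less between those arrays. Fn1 and Col5a2 were lower on each successive array. The brighter probe set of Col5a1 differed by 0.19 from day 3 to day 6, while its other probe set had the later step given above. Lcp1 was within the range of the controls from day 3, so its course after that day was not measured. Vim, Fn1, Col5a2 and Emp3 were 2-fold or more lower on day 6 than on day 3, as were 1.6% of all genes. Fn1 and Col5a2 did so by a small margin, and they were at -0.94 and -0.92 with centring on the median gene and -0.99 and -0.97 on the reference genes. On day 9 against day 6 Col5a2 alone passed that rule, on a value within the range of the controls, as did 0.591% of all genes. On day 9 against day 3 Vim, Fn1 and Col5a2 passed it, beside 3.66% of all genes.

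**Figure D3:**
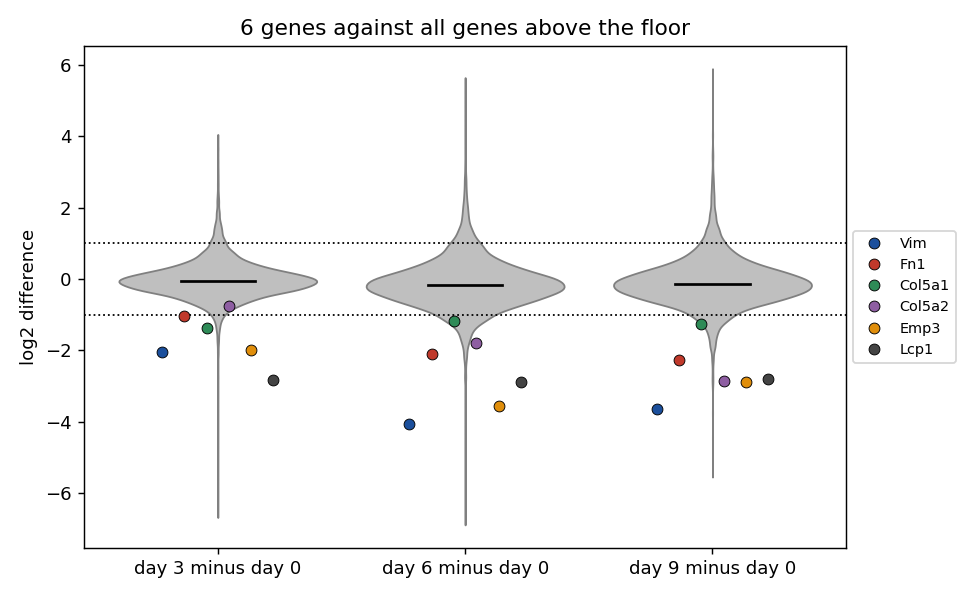
Log2 differences from day 0 (vertical axis) on days 3, 6 and 9. Grey shapes show the 8802 genes above the floor with their median as a black line, coloured points the 6 genes, and dotted lines 2-fold. All points lie below 0, and Col5a2 on day 3, at -0.76, is the point inside the dotted lines.

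Likeness of course was measured as the root mean square difference of the 3 log2 differences from day 0 (days 3, 6 and 9). All values share the day 0 array, and 3 points per gene say little. Nearest to Vim were the granulocyte growth factor gene Csf3 at 0.47, the interferon-inducible GTPase gene Gbp4 at 0.48 and Emp3 at 0.53. Gbp4 read 3.26 and 3.92 on days 6 and 9, within the range of the controls, so its likeness to Vim rests in part on background. Nearest to Fn1 were the immunoproteasome gene Psmb9 at 0.06, Sh3tc1 at 0.10 and the calpain gene Capn2 at 0.14. Col5a1 lay nearest to the EGF receptor ligand gene Areg at 0.09, Cd47 at 0.10 and the transporter gene Abcc5 at 0.12. All these figures use the brightest probe set of each gene. The other Col5a1 probe set, at -1.54, -1.75 and -1.01 against day 0, was not compared.

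Col5a2 lay nearest to the neurocalcin gene Ncald at 0.33, to Capn2 at 0.36 and to Fn1 at 0.42. The day 9 value of Col5a2 behind these figures was itself not above the brightest control. Nearest to Emp3 were the chemokine gene Ccl27 at 0.40, the arginase gene Arg1 at 0.48 and Cdc42ep5 at 0.50. Lcp1 lay nearest to the chemokine gene Ccl7 at 0.07, to Ccl27 at 0.31 and to Rab32 at 0.32. Ccl7 had 3.57, 3.50 and 3.56 on days 3, 6 and 9, like Lcp1 within the range of the controls, so that their likeness rests on day 0 and on background. Among the 6 themselves, Fn1 and Col5a2 (0.42) and Vim and Emp3 (0.53) were the closest pairs, and Vim and Col5a1 (2.19) the farthest.

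Transcription factors that drive EMT were mostly too dim to follow. Snai2 and Snai3 were not among the genes named on the array. Of 8 measured, Tcf4 alone reached the floor, at 7.13 on day 9 and 7.16 on day 0. Snai1 was at 4.59 on day 9 and 4.48 on day 0, Zeb1 at 4.09 and 3.94, and Zeb2 at 3.84 and 3.83. Zeb1 and Zeb2 were not above the brightest bacterial control on any array. Twist1 was at 5.11, 4.33, 3.74 and 4.20 on days 0, 3, 6 and 9 and thus within the range of the controls after day 0, at least 1.46-fold lower on day 9. Another Twist1 probe set, dimmer on average, was at -0.37 for day 9 minus day 0.

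Other mesenchymal marker genes were a further 13. Of these, 8 reached the floor, with a median of -0.62, -0.66 and -0.65, and 1, 1 and 1 of these were lower on days 3, 6 and 9 (beside 2.15%, 8.08% and 6.25% of all genes) while 0 were higher. The day 3 median was -0.26 with no floor, -0.31 with the mean over probe sets and -0.88 with a floor of 8, and the day 9 count was 5 after centring on the spike-ins, 2 with unmarked probe sets and 0 after centring on the reference genes. S100a4, which encodes a calcium-binding protein of motile cells, was at -0.91, -1.59 and -1.18. The day 3 call was the tropomyosin gene Tpm1, at -1.05, -0.83 and -0.71. Its 6 other probe sets ran from -1.76 to -0.15 on day 9, and those at -1.76 and -1.46 were past 2-fold. Sparc, the gene of a collagen-binding matrix protein, was at -0.88, -0.77 and -0.73, and the receptor gene Axl at 0.29, 0.17 and 0.05. Cdh2, which encodes N-cadherin, was below the floor at 4.78 on day 9 and 4.82 on day 0. Its other probe sets, dimmer on average, were at -0.93 and -0.25 for day 9 minus day 0.

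Epithelial genes of the opposite character were measured beside them. All 12 on the array reached the floor, and 2, 2 and 2 were higher on days 3, 6 and 9 (beside 4.31%, 5.74% and 5.57% of all genes) while 0 were lower. The median was 0.56, 0.42 and 0.30, and it was -0.32 on day 9 after centring on the spike-ins, with 1 gene lower. The E-cadherin gene Cdh1 was at 11.46, 11.69 and 11.73 on days 3, 6 and 9 and 11.54 on day 0, so Vim was lower with Cdh1 at nearly the same level. The genes that were higher were Grhl1, which encodes an epithelial transcription factor, at 1.59, 2.32 and 1.99, and the suprabasal keratin gene Krt13, at 2.55, 3.87 and 4.24.

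**Figure D4:**
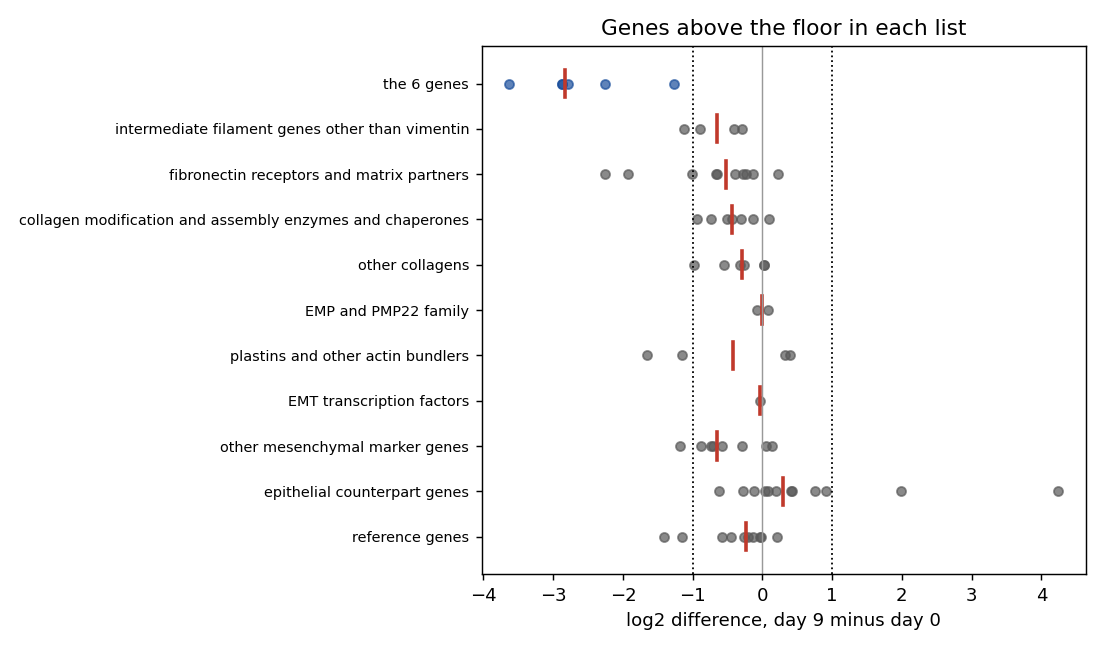
Log2 difference of day 9 minus day 0 (horizontal axis) for the 6 genes and for the genes above the floor in each list (rows). Points are genes, red bars list medians and dotted lines 2-fold. The 6 genes run from -3.63 to -1.27, but they were chosen for lower values on these days, so nothing is read from their place. List medians go no lower than -0.65, while single listed genes such as Ltbp1 (-2.26) and Itgb6 (-1.92) lie within the range of the 6. The other fibrillar collagens have no gene above the floor and no row.

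Markers of other cells that make these proteins were checked against the controls on every array. Of 11 fibroblast markers 0 reached the floor, and 9 were at or below the brightest control on all 4 arrays, among them Dcn, Lum, Postn and Pdgfra. Their summed linear signal was 126, 137 and 132 on days 3, 6 and 9 and 129 on day 0, most of it at background. Of 11 leukocyte markers 2 reached the floor and 6 were at or below the brightest control throughout, among them Ptprc, the gene of the common leukocyte antigen CD45. Their summed signal was 310, 347 and 346 on days 3, 6 and 9 and 253 on day 0. The 2 above the floor were Cd68, at 1.22, 0.95 and 0.86, and Laptm5, at -0.15, 0.37 and 0.15. Another Laptm5 probe set was at -0.22 on day 9. Cd53 did not reach the floor, and it was at least 3.30-fold higher on day 9, at 5.91 against 4.01 on day 0.

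Endothelial, skeletal muscle and Schwann cell markers gave 0 genes above the floor, of 5, 6 and 2 measured. Of 5 smooth muscle markers 2 reached it, namely Myh11, at 0.48, 1.15 and 0.87, and Acta2, at -0.26, 0.42 and 0.14. Another Myh11 probe set was at 0.09 on day 9. The summed signal of the list, with the brightest probe set of each gene, was 244, 363 and 311 on days 3, 6 and 9 and 227 on day 0. All 7 markers of stratified epithelial cells reached the floor on these arrays, among them the basal keratin genes Krt5 and Krt14, which matches the cell type in the labels. The part of other cells in the values of the 6 genes was not tested.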

How the data were processed

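RNA of 4 ROE2 cultures, 1 per day, was labelled from 500 ng of total RNA (RNA integrity number between 9.5 and 10, per the labels' protocols) and hybridised to a 3' Affymetrix rat array. Per the submitters' processing notes, the authors ran RMA, and the deposited table holds its log2 result for each probe set. No software or setting of that step is given in the sources used here, and log base 2 was read from the range. Since RMA brings the arrays to nearly a common distribution, it hides any shift shared by most genes.

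Of 31099 probe sets, the platform annotation gives 20832 a single symbol, 436 several and 9831 none. Each gene was represented by its probe set of highest mean over the 4 arrays. The Entrez identifiers of all 6 genes matched RefSeq. No test was run, since each day has 1 array. Simulated data with 8802 genes, made for day 9 against day 0, served to check the size rule. Their noise was drawn from the spread between the day 6 and day 9 arrays. These are the most alike pair, with a correlation over genes of 0.985, against 0.918 for days 0 and 9. The rule called 10.0% of 50 genes lowered 1.5-fold, 56.0% of those lowered 2-fold and 100% of those lowered 4-fold or 8-fold. With no replicates, these shares are not its detection rates in the real data. Where a probe set did not exceed the brightest of 27 bacterial controls on the dimmer array, the fold is a bound against it.

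Members and lists were chosen with earlier results of these data known. Named were all probe sets of the 6 genes, up to 6 genes per list that were 2-fold or more apart on day 9, fixed relatives, and the 3 nearest genes by course. Genes outside this rule, such as Bmp1, P4ha2, Nefh, Tpm1, Cd53, Myh11 and Col8a1, were named after their values were seen. Alternatives were other floors, probe set choices, centrings, a further quantile normalization and thresholds of 1.5-fold and 3-fold. The work ran in Python 3.11.15, with matplotlib 3.10.9, pandas 2.3.3 and numpy 2.4.6.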

Additional observations from a re-analysis of the deposited data

How the results depend on the processing

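Under 4 alternatives of scaling, the 72 differences of the 6 genes from day 0 were all below 0, from -4.48 to -0.56. No paired analysis was possible because each day had 1 array. The count of the 6 lower on day 3 was 5, and 3 at a 3-fold threshold. Fn1 on day 3 was at -0.98 with arrays centred on the median gene and -0.84 when centred on the reference genes, where Col5a1 was at -0.92 on day 6 and -0.98 on day 9. With the mean over probe sets Col5a2 was at -0.43 for day 9 minus day 6. With a floor of 8, Lcp1 and Col5a2 left the set. Counts over all genes moved more. Those lower on days 3, 6 and 9, main values 189, 711 and 550, were 114, 408 and 327 with a floor of 8, 102, 323 and 239 with centring on the reference genes, 327, 2044 and 2922 on the spike-ins, 883, 2012 and 1728 at 1.5-fold and 47, 165 and 130 at 3-fold, and on day 6 there were 426 with centring on the median gene. Those higher, main values 379, 505 and 490, were 894, 1062 and 1058 at 1.5-fold and 125, 191 and 185 at 3-fold, and on days 6 and 9 they were 830 and 843 with centring on the reference genes and 243 and 175 on the spike-ins. The cause was not tested.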

Other observations

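Among 22 other collagen genes measured, 6 reached the floor, and their median difference from day 0 was -0.19, -0.36 and -0.29 on days 3, 6 and 9. Col17a1, which encodes the hemidesmosome collagen of basal epithelial cells, was at 12.28 on day 9 and 12.26 on day 0. Col4a5, a basement membrane collagen gene, was at -0.18, -1.05 and -0.98. Col8a1 was higher on day 3 alone, with 4.88, 6.42, 5.11 and 4.91 on days 0, 3, 6 and 9. Of 10 reference genes, Tfrc was at -1.41 and Gusb at -1.15 on day 9, so neither held its level on these arrays, and the list median was -0.16, -0.27 and -0.23.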
